A study of Drosophila melanogaster with 48 samples.

Results

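The genes described here are those whose ribosome-bound RNA in fly astrocytes was fitted best by a 24 h curve with its peak in the late subjective night, from 18 h to under 24 h of the cycle. A mean of 20 counts or more was reached by 9392 genes, and 774 of them (8.24%) had an F-test p under 0.05 for the cosine and sine of a 24 h curve, without adjustment for the number of genes. Of these, 136 (1.45% of the genes tested) had a fitted peak in that window. After the 8 genes named in the text or first table of the paper were left out, 128 genes remained. Of 83 such names, 63 could be matched to a gene tested, so some of the 128, of which 34 have no name here, may also be named in the paper. The number of genes chosen in the same way was 279 for the early subjective day, 111 for the late subjective day and 201 for the early subjective night. The 24 h fit chose these genes, so every amplitude, peak time and comparison of clock hours below is a description of the chosen genes and not a test of rhythmicity. Genes without a rhythm also pass an unadjusted limit, and the window takes in a part of them. How many of the 136 genes are of this kind was not computed, and it may be most of them. After Benjamini-Hochberg adjustment of the same F-test, 59 of the 9392 genes, with any peak time, had a p under 0.05.

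Circadian clocks keep running in constant darkness (DD), and the hours that would have been dark are then called the subjective night. In flies the transcription factors CLOCK and CYCLE drive many genes whose RNA is highest around dusk and the early night, whereas other genes, driven by the second loop of the clock, have their highest RNA levels around dawn. Astrocytes are glial cells that take up neurotransmitters, supply neurons with metabolites and take part in the control of behavioral rhythms.

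All flies carried eaat1-Gal4, elav-Gal80 and UAS-EGFP-L10a, so a ribosomal protein tagged with EGFP was expressed mainly in astrocytes. The study notes that the driver also reaches some cortex glia, and elav-Gal80 was included to block Gal4 in neurons. After entrainment to LD 12:12, flies were moved to DD and frozen every 4 h from 0 to 44 h, and the RNA bound to tagged ribosomes was isolated from pooled heads by TRAP (translating ribosome affinity purification). The 12 time points form the groups, each with 2 biological replicates from independent crosses. The 2 data sets of each replicate and time point were taken as technical and added up here, and each of the 24 sums is called a library. There is no untreated or mutant group. TRAP signal in a pool of heads does not tell apart the number of cells, the RNA per cell and the ribosomes per RNA.

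The libraries held between 6371034 and 37267216 counts on genes. The 28 h library of replicate 2 stood apart, with 49.6% of its counts in its 10 highest genes against 9.20% to 14.6% in the other 23 libraries. The 28 h library of replicate 1 rests on 1 data set, because the other holds 91 counts. In the 16 h library of replicate 1, 9.47% of the alignments tallied were not unique, against 21.7% to 36.9% in the other 11 libraries of that replicate and 3.92% to 7.33% in 11 libraries of replicate 2. Its data sets are also titled with the letters d and e, whereas the other libraries of replicate 1 carry a or b, the same letter in both data sets, and those of replicate 2 carry c and g. What the letters stand for is not given in the sources used here. Whether data sets with different letters come from the same cDNA library is therefore not known. Of 12 listed astrocyte markers, 4 could be paired with a name and tested (e, ine, Eaat2 and Gabat), and their summed level ranged from 136 to 309 CPM, the counts scaled to a common library size, over the libraries. Eaat2 is also on the list of ensheathing glia markers. Of the 10 hemocyte, 20 fat body and 19 muscle markers listed, only 1 each could be named and tested. NimC1 of hemocytes was at 1.12 to 5.06 CPM, bmm of the fat body at 21.2 to 89.9 CPM and Tm1 of muscle at 29.6 to 83.9 CPM. The share of RNA from these tissues was not tested.

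Of the 128 genes, 94 have a name in the tables at hand, 35 of these only a CG number, and 34 are known here only by their identifier. In comparison, 18.2% of all genes tested have a name. The names come from the study's own tables, so no share of a gene family is compared with all genes. The 93 genes with a RefSeq entry include 89 protein-coding genes and 4 noncoding genes or pseudogenes.

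The fitted peaks were concentrated at the beginning of the window. A peak between 18 and 19 h was fitted for 55 genes, between 19 and 20 h for 26, and the later hours held 14, 13, 11 and 9 genes. The amplitude, the distance from the midline of the fitted log2 curve to its crest, had a median of 0.34 and ranged from 0.11 to 1.75. It exceeded 0.5 for 28 genes and 1 for 6 genes. The median fitted ratio of peak to trough was 1.60 (range 1.16 to 11.3).

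By the averages of the replicates, 56 genes were highest at 44 h, 25 at 20 h, 24 at 16 h and 10 at 0 h. Over all 9392 genes, 1536 were highest at 44 h, 600 at 20 h, 1420 at 16 h and 570 at 0 h, so 44 and 16 h were also the most common highest hours overall. The lowest time point was 8 h for 32 genes, 12 h for 32, 4 h for 21, 28 h for 18 and 32 h for 15. Only 20 and 44 h were sampled inside the window, and the 24 genes highest at 16 h were placed in it by the fitted curve. The median level of the genes, relative to the mean of each replicate, was lowest at 8 h in replicate 1 (-0.28 on the log2 scale) and at 12 h in replicate 2 (-0.42). It was highest at 44 h in both replicates, at 0.27 in replicate 1 and 0.52 in replicate 2, where 120 of the 128 genes lay above their replicate mean.

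**Figure D1:**
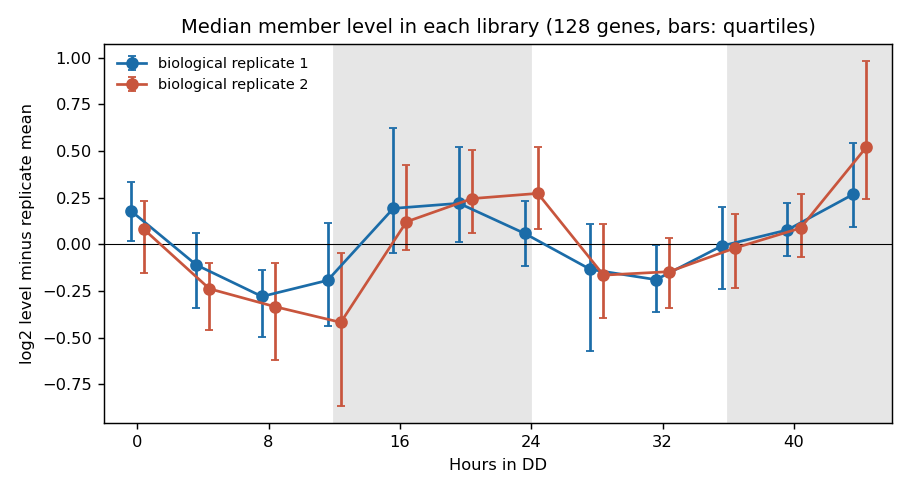
Median of the 128 genes in each library (points) with quartiles (bars), as log2 normalised counts minus the mean of the same replicate, against hours in DD; grey marks the subjective night. Both replicates are highest at 44 h (0.27 and 0.52), and the quartiles are widest at 12 and 44 h in replicate 2.

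The limits of the choice cut through a continuum. By the least-squares p, Mat89Ba (0.0481) and FBgn0001330 (0.0497) were just inside the limit, and CG11180 (0.0507) and flw (0.051) just outside. By peak time, CTCF (18.02 h) and mRpL12 (18.05 h) were just inside the beginning of the window, and Myo31DF (18 h after rounding) and Fbxo42 (17.96 h) just before it. At the other end, FBgn0036741 (23.91 h) and FBgn0030065 (23.89 h) were inside, while FBgn0033980 (0.107 h) and ATPsynbeta (0.138 h) fell into the next cycle. By mean count, FBgn0030617 (20.2) and dtr (21.1) were just above the minimum, and FBgn0037570 (15.7) and FBgn0031760 (14.6) would have met the other limits.

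Achl (Achilles) had the largest amplitude, 1.75 ± 0.33 (SE), with a peak at 21.03 h. Achilles is known as a gene that cycles in fly heads and acts on the expression of immune genes. Its normalised read count in replicate 1 had a median of 174 and ranged from 4.92 at 32 h to 232 at 36 h. In replicate 2 the median was 193, with the lowest count of 18.6 at 32 h and the highest of 305 at 0 h. The troughs of both replicates on both days lay at 12 h and 32 h. At 20 and 44 h the count was 245 ± 29.3 (SD, n = 4 libraries, 2 replicates on 2 days), and at 8 and 32 h it was 31.9 ± 25.6, a ratio of 7.67.

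CG13631, a gene with only a CG number, had the smallest p of the selection (amplitude 0.49 ± 0.07, peak 18.97 h). Its count was 3182 ± 531 at 20 and 44 h and 1711 ± 218 at 8 and 32 h (SD, n = 4). The 4 counts at 20 and 44 h were all above the 4 at 8 and 32 h. The highest count was 3560 at 16 h in replicate 1 and 3906 at 20 h in replicate 2, so the replicates placed the peak at 18.07 and 19.96 h.

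CG34134 reached 419 ± 21.2 counts at 20 and 44 h against 171 ± 22.7 at 8 and 32 h (SD, n = 4). Its highest libraries were those of 0 h, with 506 counts in replicate 1 and 457 in replicate 2, and its fitted peak was at 22.20 h. CG17127 peaked at 23.04 h and had 53.3 ± 15.8 counts at 20 and 44 h and 15.9 ± 9.27 at 8 and 32 h. Its counts were small, with a lowest value of 3.09 at 32 h in replicate 2. The amplitudes were 0.68 ± 0.13 for CG34134 and 1.03 ± 0.20 for CG17127.

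The most abundant gene was CG17108, with an average of 42266 raw counts. Its normalised count was 55711 ± 17317 at 20 and 44 h and 20055 ± 6344 at 8 and 32 h (SD, n = 4), a ratio of 2.78. In replicate 2 it was 56495 counts at 20 h but 31011 at 44 h, below the 39761 counts at 36 h. The antisense RNA asRNA:CR44181 starts 955 bases away on chromosome arm 2L (10695058 to 10698195; CG17108 lies at 10692940 to 10694103) and was also chosen, with a peak at 20.15 h against 21.14 h for CG17108. Whether reads were counted by strand is not given in the sources used here, and asRNA:CR44181 overlaps CG7300, so its counts are uncertain.

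The gene dnd, which encodes the fly Arl3, a small GTPase, had 222 ± 35.9 counts at 20 and 44 h and 136 ± 36.1 at 8 and 32 h. FBgn0000409, with an average of 7989 raw counts, peaked at 22.66 h, and its 4 counts at 20 and 44 h (8220 ± 1823) overlapped those at 8 and 32 h (5823 ± 1699). CG15369 had the second largest amplitude, 1.59 ± 0.36, and was listed at 0 counts at 32 h in replicate 2 and at 126 at 20 h. The height of single peaks in these genes varied between the days and replicates.

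Other genes with a small p also have only CG numbers. CG9757 had 53.2 ± 6.32 counts at 20 and 44 h and 11.8 ± 3.69 at 8 and 32 h (SD, n = 4), a ratio of 4.50, although its highest library was that of 40 h in replicate 2, with 197 counts. CG8419 had 143 ± 31.8 and 81.0 ± 12.4 counts at those hours, with its lowest library at 8 h in both replicates. CG3376 had 618 ± 50.6 counts at 8 and 32 h and 1440 counts in its highest library, at 24 h in replicate 2. In CG8419, CG3376 and CG42542 the hours of 20 and 44 did not overlap with 8 and 32, whereas in CG10553, CG6472 and CG32647 they did. CG32647 ranged from 67.5 counts at 28 h to 492 at 40 h in replicate 1 and from 119 at 12 h to 1295 at 44 h in replicate 2. CG10553 was lower in replicate 2, with medians of 268 and 150 counts in the replicates (log2 difference -0.96 ± 0.22, adjusted p = 0.00192, edgeR). This p takes the libraries of a replicate as units and does not measure the spread between crosses.

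**Figure D2:**
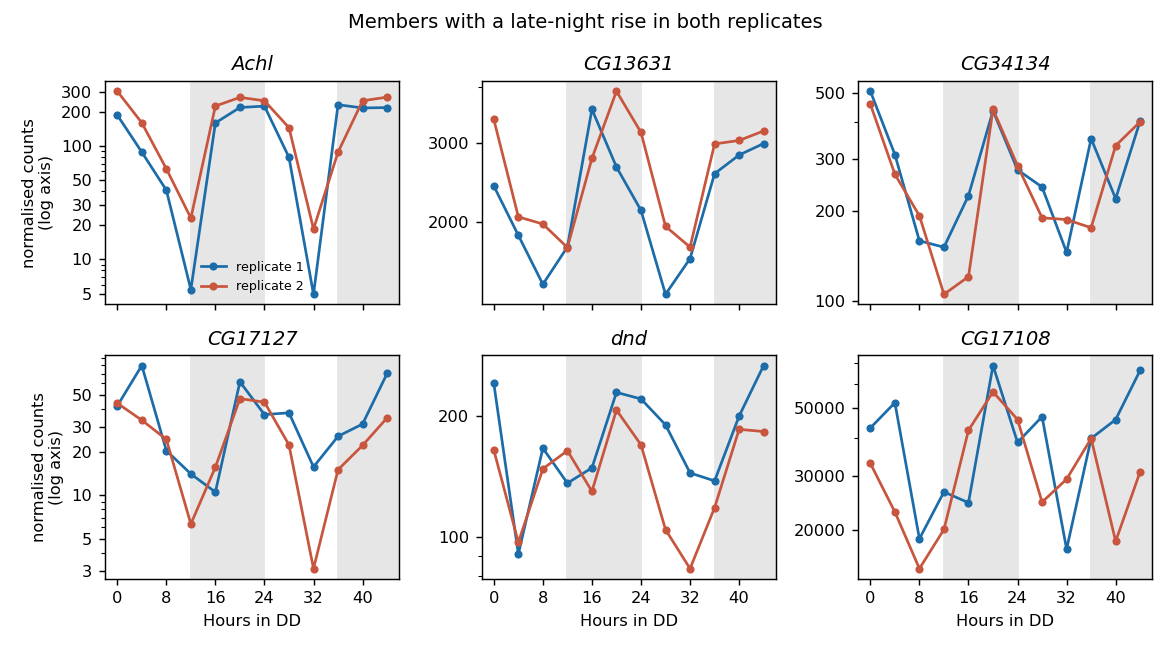
Normalised counts (log axis) of 6 genes against hours in DD in replicate 1 (blue) and replicate 2 (red), with the subjective night in grey. Achl falls to 4.92 and 18.6 counts at 32 h in the replicates and has 219 and 269 counts at 20 h, and CG17108 has 31011 counts at 44 h in replicate 2 against 56495 at 20 h.

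For 31 of the 128 genes, all 4 libraries of 20 and 44 h lay above all 4 of 8 and 32 h, against 1.12% of all genes tested. The choice of genes used the same contrast, so nothing is read from the difference between these shares. Apart from the genes above, the 31 include Nepl18, Coq9, ECSIT, Bcs1, Mpp6, Noc2, Rrp42, mRpS35, CG11267 and CTCF.

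The named genes were grouped by known roles after their values were seen, and the groups are given as descriptions. Of the mitochondrial ribosome and protein folding machinery, 6 genes were chosen: the ribosomal proteins mRpL12, mRpL55 and mRpS35, CRIF, whose mammalian relative binds the mitochondrial ribosome, and the chaperones l(2)tid and CG11267 (Hsp10-like). All 6 peaked before 19 h, with small amplitudes of 0.18 to 0.25. CG11267 had 3793 ± 212 counts at 20 and 44 h and 2910 ± 301 at 8 and 32 h (SD, n = 4), without overlap. mRpL12 had 776 ± 143 and 534 ± 60.1 counts at the same hours, and 1 of its 4 late-night values lay within the range of the others. Of 13 named mitochondrial ribosomal protein genes that were tested, 6 had a p under 0.05 and 3 of these peaked in the window. Such a p was common among named genes, since 273 of 754 tested genes with a CG number as name had one. Nothing is therefore read from the counts of this family.

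Another 5 genes act in respiration. Coq9 is needed for the synthesis of ubiquinone, ECSIT assists the assembly of complex I in mammals, Bcs1 that of complex III, ScsbetaG is a subunit of succinyl-CoA synthetase, and blw encodes the alpha subunit of the ATP synthase. Their amplitudes were 0.14 to 0.26 and their peaks 18.31 to 20.47 h. Coq9 had 321 ± 28.8 counts at 20 and 44 h against 230 ± 31.8 at 8 and 32 h (SD, n = 4), and its peaks in the replicates were 19.06 and 19.15 h. blw, the most abundant of them, had 16029 ± 1364 and 13572 ± 2336 counts at these hours, which overlapped.

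Of the ribosome biogenesis and RNA exosome genes, Rrp42 (an exosome subunit) peaked at 18.13 h, and Mpp6 (an exosome cofactor), Noc2 (assembly of the large ribosomal subunit) and mbm (a nucleolar protein needed for growth of neuroblasts) peaked between 21.20 and 22.35 h. Their amplitudes were 0.21 to 0.33. Rrp42 had 215 ± 44.7 counts at 20 and 44 h and 128 ± 27.2 at 8 and 32 h (SD, n = 4). Mpp6 and Noc2 lie 5956 bases apart on chromosome arm 2L.

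The 4 cuticle and chitin genes were snsl, which acts in barrier formation at the body surface, Gasp, a chitin-binding protein of the tracheae, the cuticular protein Cpr51A and the chitin deacetylase verm. snsl had 62.1 ± 10.4 counts at 20 and 44 h and 23.3 ± 9.29 at 8 and 32 h (SD, n = 4), with an amplitude of 0.73 ± 0.16. Gasp peaked at 23.62 h, and its counts of 112 ± 67.5 and 75.1 ± 14.1 at those hours overlapped. The epidermis marker list held 2 named genes that were tested, Cpr51A and verm, and both were chosen. Their summed level was 4.24 to 16.5 CPM over the libraries, 7.89 to 13.9 at 20 and 44 h and 4.64 to 13.8 at 8 and 32 h, and the part of epidermal RNA in the cuticle genes was not tested.

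Of genes that act on amino acids, lipids or peptides, Nepl18, a relative of the neprilysin metalloproteases, had 690 ± 64.2 counts at 20 and 44 h and 327 ± 58.0 at 8 and 32 h (SD, n = 4), a ratio of 2.11. The other genes of this group had smaller or less even differences. CG9674, a glutamate synthase, peaked at 19.53 and 19.58 h in the replicates with 3599 ± 1348 and 2503 ± 262 counts. The glial amino acid exchanger gene genderblind (gb) peaked at 1.73 h in replicate 1 and 20.25 h in replicate 2. Faa (tyrosine breakdown), St3 (a sulfotransferase), Elovl7 (fatty acid elongation) and Ance-5 (a relative of angiotensin-converting enzyme) had amplitudes of 0.18 to 0.31.

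The 10 transcription factors and cofactors peaked between 18.02 and 19.90 h, with amplitudes of 0.23 to 0.86. They included the homeodomain proteins vvl and ct, the corepressor gro, the BTB protein lolal and the insulator protein CTCF. CTCF had 434 ± 98.5 counts at 20 and 44 h and 276 ± 25.3 at 8 and 32 h, without overlap. It was the only one of the 10 without overlap between these hours. For vvl the values were 177 ± 162 and 87.3 ± 60.9 (SD, n = 4), where the SD at 20 and 44 h was nearly as large as the mean.

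Another 10 genes encode cytoskeletal, membrane or signalling proteins, with amplitudes of 0.13 to 0.91. Among them are the actin bundlers sn (fascin) and Fim (fimbrin), the polarity scaffold sdt, the ankyrin Ank2, the G protein subunit Gbeta13F and Rab35, a small GTPase of membrane traffic. In none of the 10 were all libraries of 20 and 44 h above those of 8 and 32 h. Gbeta13F ranged from 257 counts at 28 h to 1435 at 20 h in replicate 1 and from 213 at 12 h to 3651 at 44 h in replicate 2. sn peaked at 15.75 h in replicate 1 and 20.48 h in replicate 2, and Fim at 16.85 and 20.72 h. Synd (syndapin, a membrane-bending protein) had the smallest amplitude, 0.13 ± 0.04, on 970 to 1503 counts.

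The 4 noncoding genes or pseudogenes also include lncRNA:CR45018, lncRNA:CR43650 and CR43170. They peaked at 20.55, 21.63 and 20.71 h and were highest at 44 h in replicate 2, with 78.1, 196 and 76.3 counts. Their values at 20 and 44 h overlapped those at 8 and 32 h.

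**Figure D3:**
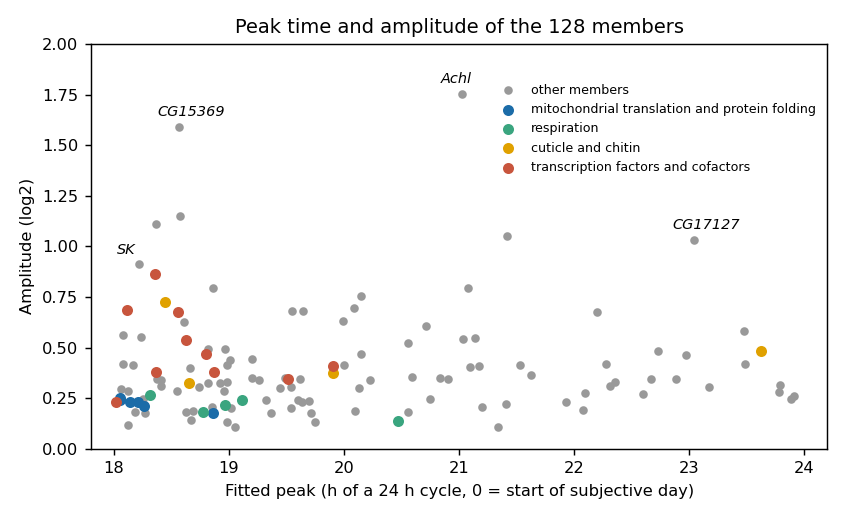
Fitted peak (h of the 24 h cycle) against amplitude (log2) of the 128 genes, coloured by 4 of the role groups. Peaks crowd between 18 and 19 h (55 genes), the mitochondrial genes lie at amplitudes of 0.14 to 0.26, and Achl (1.75) and CG15369 (1.59) lie highest.

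The high values of many genes came from 2 libraries. In replicate 1, 41 of the 128 genes were highest at 16 h (18.7% of all genes tested were) and 34 at 44 h (4.8% of all genes tested). In replicate 2, 61 were highest at 44 h (27.3% of all genes tested). In total, 30 genes were highest at 16 h in replicate 1 and at 44 h in replicate 2, against 7.42% of all genes tested. The low values were also unevenly spread, since 30 genes were lowest at 28 h in replicate 1 (10.6% of all genes) and 41 at 12 h in replicate 2 (11.9% of all genes). The choice of genes used these values, so the shares are given as a description.

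SK, which encodes a potassium channel opened by calcium, shows the uneven pattern best. Its count in replicate 1 was 261 at 16 h and 35.8 to 118 in the other libraries, and in replicate 2 it was 1532 at 44 h and 63.9 to 324 in the others. vvl was highest at 159 counts at 16 h in replicate 1 and 418 at 44 h in replicate 2. Its lowest counts were 26.5 at 28 h and 33.7 at 12 h. Usf, a bHLH transcription factor, reached 215 and 586 counts and beat-VII, an immunoglobulin-domain protein of the beaten path family, 87.4 and 151 counts in the same libraries. In these genes the highest hours of the replicates were thus on different days and 4 h apart in the cycle.

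**Figure D4:**
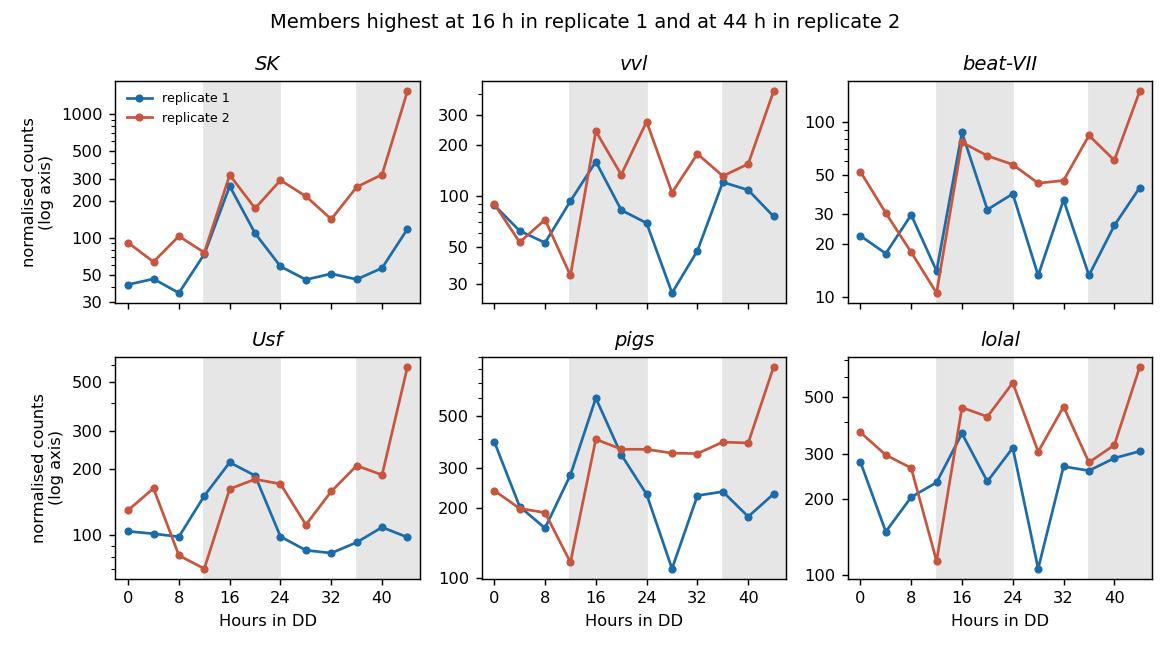
Normalised counts (log axis) of 6 genes that were highest at 16 h in replicate 1 (blue) and 44 h in replicate 2 (red), against hours in DD with the subjective night in grey. SK reaches 261 counts at 16 h in replicate 1 and 1532 at 44 h in replicate 2, and most other values are far lower.

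Without the 44 h library of replicate 2, 70 of the 128 genes were still chosen, but of the 30 genes with the uneven pattern only 6 were. Of the 20 genes of smallest p, 19 were still chosen. Without both that library and the 16 h library of replicate 1, the numbers were 68, 8 and 19. These libraries were left out after their values had been seen. The 30 genes were defined by their highest values in these libraries, and the 20 by the smallest p. The difference between them was thus largely set by how they were chosen, and nothing is read from it. The genomic span was known for 15 of the 30 genes, with a median of 8176 bases, against 2848 bases for 78 other chosen genes and 2842 bases for all genes tested that have a RefSeq entry. The spans of the 15 genes ranged from 532 to 64903 bases and those of the 78 from 485 to 120684. The difference was looked up after the genes were chosen and was not tested. The 16 h library of replicate 1 detected 10398 genes and the 44 h library of replicate 2 detected 12162, within the range of all libraries (10162 to 13863).

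One photoreceptor gene, Rh6, which encodes a rhodopsin, belongs to the group and followed the uneven pattern, with 8615 counts at 16 h in replicate 1 and 14055 at 44 h in replicate 2. The photoreceptor list had 5 named genes that were tested (Arr1, inaD, Rh5, Rh6 and chp). Their summed level was 1186 CPM at 16 h in replicate 1 and 1953 at 44 h in replicate 2, over a range of 855 to 2023 in all libraries. The sum, which includes Rh6, was thus high in only 1 of these libraries, and the part of photoreceptor RNA in the result was not tested. Astrocyte markers were 156 and 154 CPM in these libraries, near the lower end of their range. Ensheathing glia markers (Tsf1, Eaat2 and zyd) ranged from 265 to 1356, and no neuronal or pan-glial marker has a name in the tables at hand.

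The replicates were then compared. The fitted peaks of the replicates were less than 3 h apart for 85 of the 128 genes, against 27.4% of all genes tested, with a median gap of 2.15 h. The choice used both replicates, so nothing is read from this share. In replicate 1 alone 85 genes peaked in the window (19.4% of all genes), in replicate 2 alone 106 (23.7%), and in both 63 (4.7%). The amplitude was larger in replicate 2 for 84 genes (64.5% of all genes) and larger on the first day for 85 (49.9% of all genes). The median amplitude was 0.40 on the first day and 0.31 on the second, against 0.22 and 0.21 over all genes tested. The difference of the curve between the days, tested further below, passed the adjusted threshold for no gene.

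To use values that did not enter a choice, the same limits were applied to the 12 libraries of 1 replicate and the genes were looked up in the other, with the size factors taken from all 24 libraries. Replicate 1 alone gave 46 genes, and 25 of these (54.3%) peaked in the window in replicate 2, against 23.7% of all genes. Replicate 2 alone gave 140 genes, and 35 (25%) peaked in the window in replicate 1, against 19.4% of all genes. The share lay further above the background for the genes of replicate 1 than for those of replicate 2, and neither gap was tested. Without the 28 h library of replicate 2, which stood apart, the counts were 23 of 46 genes against 24.5% of all genes, and 28 of 136 genes (20.6%) against 19.4%, so the second gap was nearly gone. With all 24 libraries, the p limit and the window together were met in both replicates by 9 genes. These are Achl, CG13631, CG34134, CG17127, dnd, CG8419, CG15369, CG33639 and FBgn0000409. The 9 genes make up 19.6% of the 46 genes and 6.43% of the 140 genes, against 1.5% of all genes in replicate 2 and 0.493% in replicate 1.

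**Figure D5:**
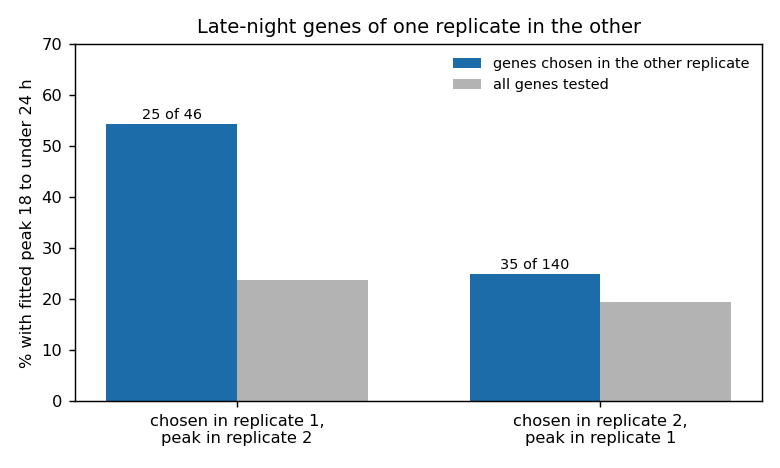
Share of genes (%) with a fitted peak from 18 to under 24 h in the replicate that was not used to choose them (blue), beside all genes tested (grey). The share was 54.3% against 23.7% for genes chosen in replicate 1 and 25% against 19.4% for those chosen in replicate 2.

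CG34134 and CG8419 of these 9 genes lie 15390 bases apart on chromosome arm 2L (8190297 to 8190781 and 8206171 to 8209637, Release 6). Over the 24 libraries, after the mean of each replicate was removed, the correlation between them was 0.68 (Pearson's r, a description over libraries that share size factors and a cycle). Among other chosen genes less than 25000 bases apart, a few pairs had a similar correlation: CG43092 and CG43093, which are 108 bases apart on 3R (r = 0.65), and SK and spoon, which are 7248 bases apart on X (r = 0.73). CG17108 and asRNA:CR44181 had an r of 0.505, and Mpp6 and Noc2 one of 0.498. Mrtf and mRpS35, 14363 bases apart on 3L, had an r of 0.06. All these genes were chosen for a peak in the same window. No r was computed for chosen genes farther apart, so nothing is read about neighbours. CG43092 and CG43093 both overlap CG7029 and Usp12-46, and CG8419 overlaps Su(var)205, so their counts are uncertain. The same holds for other genes described here, among them dnd (CG6678), Coq9 (CG30496), Rrp42 (EMC7), Nepl18 (CG33203), snsl (CG3036) and CG9674 (nudC). Mpp6, Noc2 and CTCF each overlap more than 1 gene. The 93 genes with a position were spread over 2L (14), 2R (16), 3L (19), 3R (27) and X (17).

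When the raw counts were fitted with edgeR (quasi-likelihood), the same 24 h terms gave an adjusted p under 0.05 to 55 genes (0.586% of those tested), of which 3 belong to the group: CG13631, CG34134 and SK. This test repeats the contrast that chose the genes and is no separate support. Over all genes, 7.86% had an unadjusted p under 0.05 in that test, and 110 of the 128 chosen genes did.

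The next contrasts are separate terms from the 24 h curve, but the choice was not blind to them. Variation with day, with 12 h or between curves lies in the residual that the F-test divides by, so the p limit kept out genes with much of it, and nothing is read from low shares among the 128 genes. Levels on the second day were compared with those on the first. No gene passed the adjusted threshold (0% of all genes, edgeR with Benjamini-Hochberg adjustment), while 15.9% of all genes and 6 of the 128 had an unadjusted p under 0.05. The median log2 difference (day 2 minus day 1) was 0.05 over the group and -0.02 over all genes, and 79 of the 128 genes (61.7%) were above 0, as were 47.5% of all genes. Ssdp, a DNA-binding partner of the cofactor Chip, had the smallest p of the group. Its count had a median of 32.4 on the first day (range 17.7 to 79.9) and 50.1 on the second (15.7 to 196), and these ranges overlapped. Its log2 difference was 0.73 ± 0.26 (SE), which did not pass (adjusted p = 0.312, edgeR).

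A 12 h component passed the adjusted threshold in no gene (0% of all genes, edgeR), and 8.13% of all genes and 2 of the 128, CG8461 and CG9757, had an unadjusted p under 0.05. The difference of the 24 h curve between the biological replicates passed for no gene (0%), with 3.06% of all genes and 2 of the 128 under 0.05 before adjustment. These 2 were FBgn0003391 and CG32647, which peaked at 16.48 h in replicate 1 and 20.96 h in replicate 2. The difference of the curve between the days also passed for no gene (0%), with 6.82% of all genes and 7 of the 128 under 0.05 before adjustment. CG34134 had the smallest of these p (0.00049, edgeR, adjusted p = 0.624). Its amplitude was 1.00 on the first day with a peak at 23.43 h, and 0.51 on the second with a peak at 19.64 h. DESeq2 also called 0 of the 128 genes in each of these contrasts after adjustment, and over all genes it called 19 for the day difference and 6 for the curve differing between days.

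Average levels differed between the replicates for 60 of the 128 genes (adjusted p under 0.05, edgeR), against 33.2% of all genes tested. Before adjustment, 72 of the 128 genes and 42.2% of all genes had a p under 0.05. Higher levels in replicate 2 were found for 38 genes (17.6% of all genes) and lower levels for 22 (15.5% of all genes). The median log2 difference (replicate 2 minus replicate 1) was 0.15 over the group and 0.03 over all genes. The replicates come from separate crosses, and the share of alignments that were not unique also differed between them, and these cannot be told apart. Each side of this comparison is 1 biological replicate, with its 12 libraries taken as units. The p-values here and below thus rest on the spread between libraries of a replicate and not on that between crosses. Libraries of 1 replicate also deviated together (median correlation 0.19 between time points). The calls therefore describe these 2 replicates only.

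The calls were also counted by role group, although the groups were made after the values were seen and differences between them were not tested. Of the 10 transcription factors and cofactors, 8 were higher in replicate 2 (17.6% of all genes) and none was lower (15.5% of all genes). Of these 10 genes, 5 had the uneven pattern, highest at 16 h in replicate 1 and at 44 h in replicate 2. ct had a median of 23.6 counts in replicate 1 (range 2.21 to 32.9) and 37.3 in replicate 2 (4.21 to 107), with a log2 difference of 1.17 ± 0.42 (adjusted p = 0.0358, edgeR). Of the 10 cytoskeletal, membrane and signalling genes, 4 were higher (SK, sdt, Rab35 and Ank2) and none was lower, beside the same shares of all genes. SK had medians of 54.0 and 195 counts in the replicates and a log2 difference of 1.75 ± 0.34 (adjusted p = 0.000563, edgeR).

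Of the 5 genes of respiration, 4 were lower in replicate 2 (15.5% of all genes) and none was higher (17.6% of all genes). Among the other groups, 1 cuticle gene (Gasp) was higher, and 1 ribosome biogenesis gene (Rrp42) and 2 metabolic genes (CG9674 and St3) were lower. Coq9 had a median of 290 counts in replicate 1 (210 to 364) and 207 in replicate 2 (155 to 349), a log2 difference of -0.40 ± 0.09 (adjusted p = 0.00188, edgeR). blw had medians of 15801 and 13175 counts and a log2 difference of -0.28 ± 0.08 (adjusted p = 0.00887, edgeR). Of the mitochondrial ribosome and folding genes, mRpL12, mRpL55 and l(2)tid were lower in replicate 2 and CRIF was higher, with a median of 362 counts (312 to 482) against 538 (313 to 773) and a log2 difference of 0.58 ± 0.09 (adjusted p = 0.000139, edgeR).

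The gene of smallest p in this comparison was FBgn0266581, with 351 to 609 counts in replicate 1 and 231 to 334 in replicate 2 and a log2 difference of -0.74 ± 0.09 (adjusted p = 1.2e-05, edgeR). It was the only one of the 128 genes whose 12 libraries of replicate 1 did not overlap those of replicate 2, against 0.66% of all genes. FBgn0001185 was higher in replicate 2, with 144 to 454 counts against 80.1 to 162 (log2 difference 1.01 ± 0.15, adjusted p = 6.4e-05, edgeR). FBgn0002031 and FBgn0029529 were lower in replicate 2, by differences of -0.41 ± 0.06 and -0.51 ± 0.08.

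The other lists of known genes held few named members. A p under 0.05 was common among named genes (273 of 754 with a CG number as name). Nothing is therefore read from the counts of these lists. None of the 7 clock genes and 7 clock targets or output genes that have a name and were tested is in the group, and the rule left out genes named in the paper where their names could be matched. None of the 15 cytosolic ribosomal proteins with a name had a p under 0.05. Of 22 subunits of the respiratory chain and ATP synthase matched by the pattern of their symbols, 5 had a p under 0.05 and none peaked in the window, whereas blw, which carries another symbol, did.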

How the data were processed

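TRAP-seq libraries of 12 time points in DD were analysed (2 biological replicates, 48 data sets). The authors aligned reads with TopHat2 2.0.9 to BDGP6 and deposited raw counts per gene from HTSeq 0.6.1, with SAMtools 0.1.19 also named in the submitters' notes. These deposited counts are not filtered or normalized. The strand setting is not given in the sources used here. The rows without a gene were left out of the library sizes, and reads without a feature made up 0.511% to 3.14% of the tallies, apart from 11.7% in the 28 h library of replicate 2. No intervals are given for these shares of the tallies, and the spread between replicates limits the precision of the levels.

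Technical data sets were summed. Genes with a mean of at least 20 counts (9392 of 17558) were divided by median-of-ratios size factors and fitted on log2(x + 1) by least squares with replicate, cosine and sine of 24 h. Means and SDs of folded hours are of normalised counts. Contrasts were tested with edgeR 4.0.16 in R 4.3.3 (TMM, quasi-likelihood, Benjamini-Hochberg over all genes tested), with DESeq2 1.42.0 as an alternative. Python 3.11.15, numpy 2.4.6, scipy 1.17.1 and pandas 2.3.3 were used. The fits of the 24 h curve and of the day difference were tested on simulated data. For the 24 h curve, 8.0% of 25 genes were recovered at a size of 0.25 on the log2 scale and 40.0% at 0.5. At sizes of 1.0 and 1.5, 68.0% and 92.0% were recovered. Recovery was not tested for the 12 h component, the differences of the curve or the replicate difference. For 9392 genes, the edgeR fit of the day difference recovered 80.0% and 84.0% of 25 genes each lowered or raised by 1.5 on the log2 scale, but 28.0% and 4.0% of those changed by 0.5.

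The selection of the 128 genes and the gene lists were made with earlier results of these data known. The genes named are the 20 of smallest F-test p, the gene of smallest p in each gene list, the genes next to each limit, and up to 5 genes past the threshold in each contrast other than the 24 h curve. Other genes were named after their values were seen. Gene names come from the names in the paper's supplementary tables, updated through RefSeq (Release 6), and 18.2% of genes tested could be paired with one. Alternatives were other normalizations, count minimums and pseudocounts, single technical data sets, no replicate block, DESeq2, and libraries or replicates left out.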

Additional observations from a re-analysis of the deposited data

How the results depend on the processing

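Of 121 alternative counts, 110 were within 1.5 times the stated ones. The number of genes chosen was 106 to 150 under 14 of the other settings, with 54.7% to 100% of the 128 genes among them except where both libraries of the uneven pattern were left out (53.1%). Without the replicate block it was 85, of which 84 were among the 128. With 1 biological replicate left out and size factors computed anew over the remaining 12 libraries, 40 to 150 genes were chosen (46 and 140 with the size factors of all 24 libraries), of which 21 (without replicate 2) and 38 (without replicate 1) were among the 128. With data sets 1 and 3 alone the 28 h library of replicate 1 was left out as well. DESeq2 gave 142 genes with a 24 h rhythm over all genes tested and 15 in the group, and edgeR without the replicate block gave 31 over all genes tested. For day 2 against day 1, the stated count of 0 over all genes tested became 19 with DESeq2, 2 with a mean of 1 count or more, 12 without the 28 h library of replicate 1, 14 without the 16 h library of replicate 1, and 0 to 1 with a replicate left out, and none of them was in the group. For the 24 h curve differing between days it became 6 with DESeq2, again with none in the group. The causes of these changes were not tested. All 40 alternative replicate differences of the 5 genes of smallest p kept their direction and call. Of 336 alternative amplitudes of the 20 genes of smallest p, 11 no longer had a p under 0.05, all with a replicate left out. Deviations of the libraries of 1 replicate from the means of the time points correlated at -0.72 to 0.66 between time points (median 0.19), with 45 of 66 pairs over 0.1, and the replicates are separate crosses. Genes met in both replicates were 7 without the 28 h library of replicate 2 and 10 without the 44 h library. The settings without the 44 h library were chosen after seeing the data. Promoter motifs were not run, since no sequences were used here.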
